A study of Homo sapiens with 4 samples.

Results

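The genes described here are 59 protein-coding genes of the distal long arm of human chromosome 6, bands 6q23.3 to 6q27, taken in chromosome order from HBS1L, the gene whose intron holds the microRNA gene MIR3662, to PDCD2 near the end of the chromosome. They were found by symbol in a table of 20804 genes, and all 59 were present once. The list was drawn up with the ratios of these genes between knockout and wild-type libraries known, so those ratios are given as a description and not as a test. RNA was sequenced in 4 libraries of MDA-MB-231, an established line of triple-negative breast cancer: 2 labelled wild type (WT) and 2 labelled with a miR-3662 knockout genotype (KO). No treatment or time is given, and the labels name no other difference between the groups. How the knockout was produced, whether it is 1 clone and whether the replicates were separate cultures is left unsaid by the labels, so the spread between replicates may be technical. The title of the series names CRISPR interference and activation, while its design text mentions sorting of cells by activity of the microRNA, so what the label KO stands for is uncertain.

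Genes that lie next to each other on a chromosome arm need not share a function. What they share is the DNA segment, with its number of copies and its chromatin, and each of these can bear on the transcript level of many neighbours at once. The stretch is best known for the interval between HBS1L and MYB, which holds enhancers of MYB that act in blood cell precursors. A microRNA pairs through its seed with sites in the 3′ untranslated regions of messenger RNAs and lowers their level or translation.

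MIR3662 marks the start of the stretch, and its sequence is shown because the KO label is defined by it. The hairpin of 95 bases lies on the minus strand at chr6:134979338-134979432 (GRCh38.p14, RefSeq), between exons 13 and 14 of the HBS1L transcript HBS1L-205 (GENCODE 29), 75466 bases downstream of that transcript's start. None of the 7 annotated HBS1L transcripts that span it has an exon there. The first line below gives the hairpin with the mature part in capitals, and the second the mature microRNA with its seed, bases 2 to 8, in capitals.
MIR3662 hairpin: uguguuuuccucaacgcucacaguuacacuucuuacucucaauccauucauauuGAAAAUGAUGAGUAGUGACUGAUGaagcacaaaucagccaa
hsa-miR-3662: gAAAAUGAugaguagugacugaug
Of 2545 mature microRNA entries in the RefSeq table, only hsa-miR-3662 carried this seed. No level of the mature microRNA itself is given here, so the values described do not check the genotype.

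The libraries were measured in FPKM, fragments scaled for transcript length and for mapped fragments, with sums of 504102 and 520527 in WT and 528986 and 544650 in KO. No source used here gives the read depth, so the precision of a low value cannot be read from it. The rank correlation over all genes was 0.979 between the WT libraries, 0.980 between the KO libraries and 0.966 to 0.970 across groups. The 7 markers of the line were at 13.3 to 1321 FPKM in all libraries. Of these, CAV1 was at 179 and 170 FPKM in WT and 443 and 450 in KO, KRT8 at 303 and 373 in WT and 171 and 143 in KO, KRT18 at 266 and 291 in WT and 195 and 170 in KO, and EGFR at 19.9 and 16.6 in WT and 13.9 and 13.3 in KO, while VIM, AXL and CD44 overlapped between groups. ESR1 was at 0.01 FPKM or less, ERBB2 at 8.55 to 11.4, and PGR was not found by its symbol among the listed genes. Markers of blood cells, fibroblasts, endothelium and adipocytes summed to at most 1.47 FPKM per list and library, with CD3E, PTPRC and COL1A2 at 0 throughout. Within them, the 3 fibroblast markers listed summed to 1.12 and 1.47 FPKM in WT and 0.37 and 0.29 in KO, nearly all of it COL1A1, and the 4 endothelial markers to 0.18 and 0.24 in WT and 0.39 and 0.67 in KO. The 5 epithelial markers summed to 17.1 and 23.01 FPKM in WT and 20.2 and 29.1 in KO, most of it KRT19. Among them EPCAM was at 1.08 and 1.15 FPKM in WT and 0.34 and 0.05 in KO, GATA3 at 1.14 and 1.18 in WT and 1.49 and 1.83 in KO, and CDH1 at 0 in WT and 0.03 and 0.02 in KO. The part of these differences in the results was not tested.

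Most of the 59 genes were lower in the KO libraries. In 48 of them both KO values lay below both WT values, in 4 both lay above, and in 7 the groups overlapped. Over all listed genes, both KO values lay below both WT values in 20.2% and above them in 32.1%. The summed level of the 59 genes was 1067 and 1092 FPKM in WT and 630 and 708 FPKM in KO. As a share of all FPKM in the library this was 0.212% and 0.210% in WT and 0.119% and 0.130% in KO, so the groups did not overlap in either measure. In bulk RNA, fewer cells that hold a transcript and less of it per cell cannot be told apart.

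Of the 59 genes, 52 reached at least 1 FPKM in at least 2 libraries and entered the fit across all genes. In 43 of the 52 both KO values lay below both WT values and in 3 both lay above, where 28.7% and 39.3% of all tested genes did so. Their median difference, KO minus WT on the log2(FPKM + 1) scale, was -0.61, with quartiles of -0.79 and -0.42, against a median of 0.07 over all 11786 genes tested. As a ratio of mean FPKM, the median of the 52 genes stood at 62.2% of WT, with quartiles of 50.9% and 68.5%, and the median of all tested genes at 106%. Of the 52 genes, 32 were lower and 1 higher at an adjusted p under 0.05 (limma, Benjamini-Hochberg over all tested genes), where 10.8% of all tested genes were called lower and 16.2% higher. The count of 32 fell when any 1 library was left out, as did the calls over all genes, and such fits leave 1 library in a group. With no filter on low values it was 7 of all 59 members. Over all genes 235 were then called lower, against 1278 in the main fit. These counts come from the contrast that chose the genes and support nothing further. NHSL1 and TULP4 passed the filter through their WT values alone.

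Each pairing of a KO with a WT library gave a similar median over the 52 genes, at -0.68, -0.61, -0.60 and -0.59. Within groups, the second WT library differed from the first by a median of -0.07, and the second KO library from the first by 0.09. The plot of the tested members in each library shows the same picture gene by gene.

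**Figure D1:**
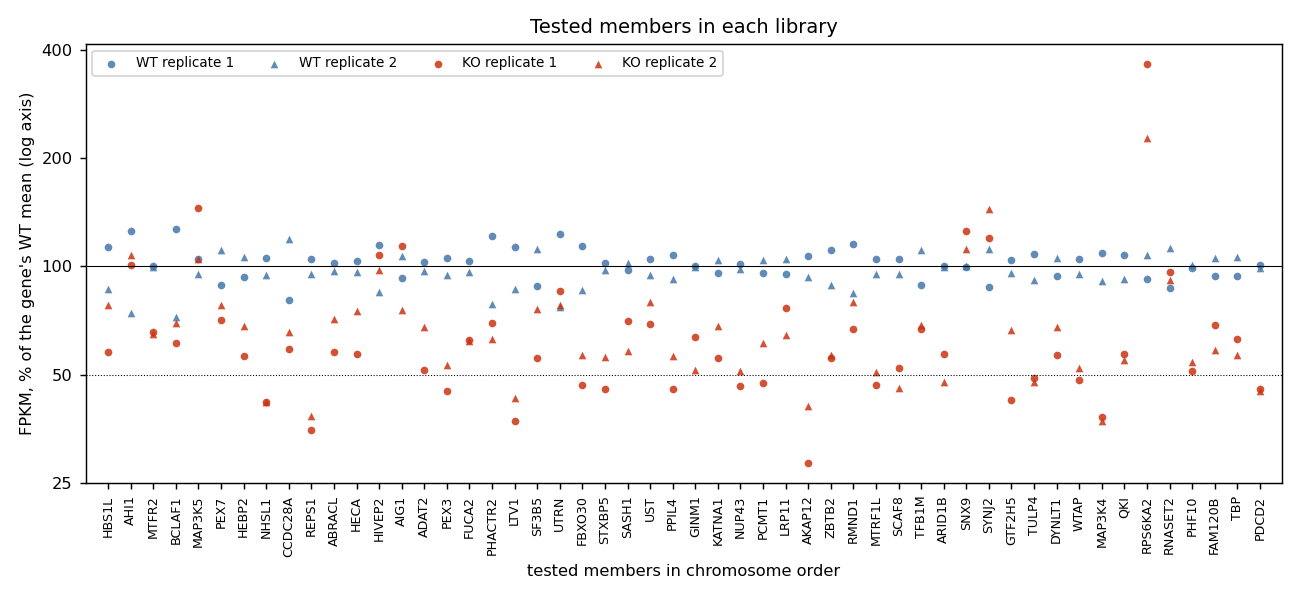
FPKM of the 52 tested members in each of the 4 libraries, as a percentage of the gene's mean in the WT libraries (log axis), in chromosome order. Blue marks are WT and red marks KO, the circle and the triangle are replicates 1 and 2, and the lines stand at 100% and 50%. In 43 of the 52 genes both red marks lie below both blue marks, and RPS6KA2, SYNJ2 and SNX9 show the reverse.

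The list was built on the position of the genes with their ratios known, so the rest of chromosome 6 is given for comparison only. The 496 tested genes before HBS1L had a median of 0.01, with quartiles of -0.27 and 0.29, and 33.5% of them had both KO values below both WT values. Between HBS1L and the end of the chromosome lie 119 listed genes that are not members, of which 45 were tested. Their median was -0.60, with quartiles of -0.89 and -0.35. In 36 of the 45 both KO values lay below both WT values, against the same 28.7% of all tested genes. Among the 45, PPP1R14C, SLC22A3, ARFGEF3 and RPS18P9 passed the filter through their WT values alone, so they could only count as lower. LINC00473 passed it through its KO values alone. Over all 119, most of them low, the median was -0.04 and both KO values lay below both WT values in 50, or 42.0%, against 20.2% of all listed genes. These genes were read in the same contrast and the same libraries and are therefore no independent test.

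**Figure D2:**
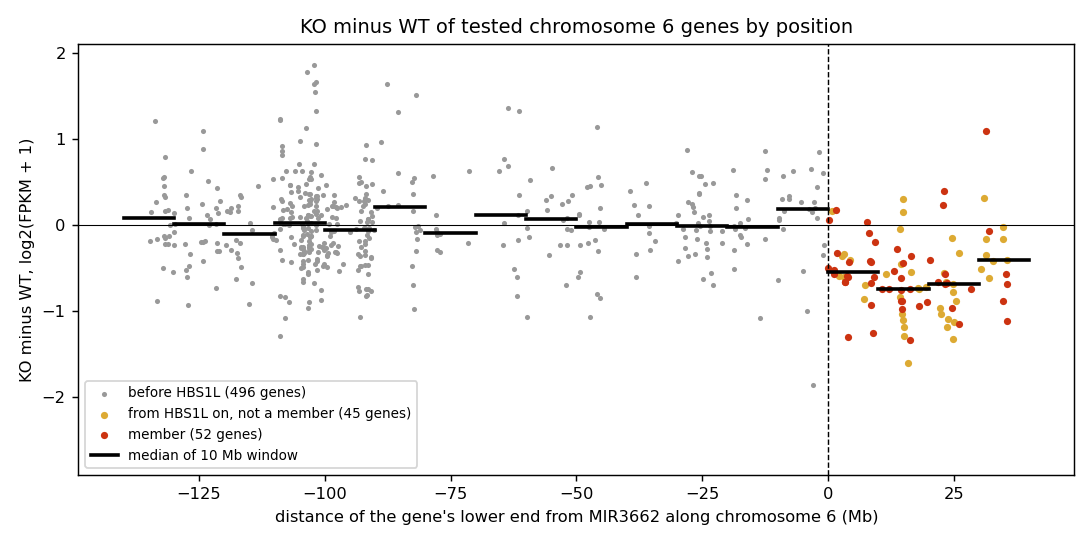
KO minus WT on the log2(FPKM + 1) scale for each tested gene of chromosome 6, against the distance in Mb of the gene's lower end from MIR3662 (dashed line). Black bars are medians of 10 Mb windows. The 14 windows before MIR3662 have medians between -0.10 and 0.21, and the 4 windows after it between -0.74 and -0.41.

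Counted from MIR3662, the 14 windows of 10 Mb that precede it on chromosome 6 had medians between -0.10 and 0.21. The last of them, which also holds HBS1L itself, had a median of 0.18 over 25 genes. After the microRNA the medians were -0.55 over 28 genes, -0.74 over 30, -0.68 over 23 and -0.41 over 15. Among 284 windows of 10 Mb across the genome that held at least 10 tested genes, counted from each chromosome's start, the medians ranged from -0.74 to 0.58. The 6 lowest, listed after their values were seen, comprised the 4 windows of chromosome 6 from 130 to 170 Mb (-0.36, -0.61, -0.74 and -0.35) and 2 on chromosome 9, from 120 to 130 Mb (-0.34) and from 130 to 140 Mb (-0.42). Whole chromosomes had medians from -0.18 for chromosome 9 to 0.26 for chromosome 4.

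**Figure D3:**
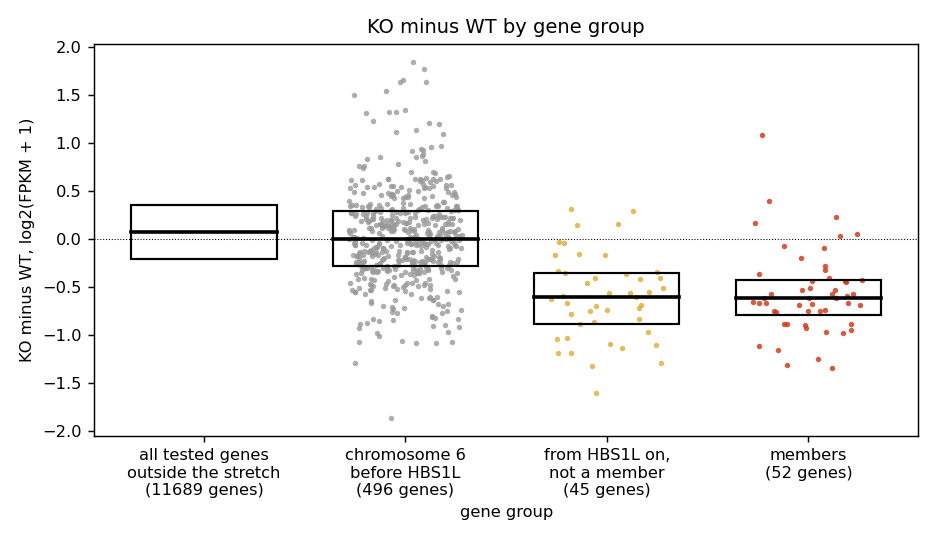
KO minus WT on the log2(FPKM + 1) scale by gene group, with 1 point per gene (no points for the 11689 genes outside the stretch). Boxes span the quartiles and the bar is the median, at 0.08 for genes outside the stretch, 0.01 before HBS1L, -0.60 for unlisted genes from HBS1L on and -0.61 for the members.

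The edge of the stretch was examined gene by gene. Of the last 3 tested genes before HBS1L, TBPL1, a relative of the TATA-binding protein, was at 15.6 and 17.1 FPKM in WT and 10.7 and 14.8 in KO. SLC2A12, a sugar transporter gene, was at 0.61 and 0.95 FPKM in WT and 1.52 and 1.86 in KO. It passed the filter through its KO values alone. SGK1, a kinase gene that responds to steroid hormones, was at 12.1 and 11.4 FPKM in WT and 9.41 and 10.3 in KO. The KO values were below WT for TBPL1 and SGK1, at 77.8% and 83.5% of the WT mean, and above it for SLC2A12.

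HBS1L encodes a GTPase-like factor that helps to rescue stalled ribosomes (gene identifier 10767, chr6:134960378-135054822, minus strand). It was at 11.8 and 9.0 FPKM in WT and at 6.01 and 8.13 in KO, 67.9% of the WT mean (log2 difference -0.50). The second WT and the second KO library lay close together. The next members were less clear. MYB, the transcription factor gene of blood precursors, was below 0.3 FPKM everywhere, at 0.29 and 0.28 in WT and 0.18 and 0.12 in KO. AHI1, a gene of the base of the primary cilium, was at 1.90 and 1.12 FPKM in WT and 1.52 and 1.63 in KO, so the groups overlapped. PDE7B, an unlisted neighbour that encodes a cyclic nucleotide phosphodiesterase, was at 3.62 and 2.84 FPKM in WT and 4.06 and 3.36 in KO, also overlapping. MTFR2, a gene linked to mitochondrial fission that lies 1.25 Mb beyond MIR3662, was the first with a clear gap, at 14.8 and 14.8 FPKM in WT and 9.75 and 9.58 in KO (65.3% of WT). The members next after it were mixed. BCLAF1 and PEX7 stood at 65.5% and 74.5% of WT, and MAP7 and MAP3K5 at 126% and 125%. MAP7 was at 0.15 FPKM or less in all libraries and not tested, and for MAP3K5 the groups overlapped.

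By role, the 12 genes of RNA processing, translation and the ribosome had a median log2 difference of -0.81, and in 11 both KO values lay below both WT values. LTV1, an assembly factor of the small ribosomal subunit (chr6:143843338-143863812, plus strand), was the lowest, at 40.1 and 30.7 FPKM in WT and 13.1 and 15.2 in KO (40.1% of WT, log2 difference -1.25). SF3B5, a small subunit of the SF3b splicing complex, had the highest level of the group, at 132 and 166 FPKM in WT and 82.6 and 113 in KO (65.8%). PDCD2, a chaperone of a protein of the small ribosomal subunit and the last gene on the list (chr6:170575295-170584637, minus strand), was at 75.3 and 74.1 FPKM in WT and 34.1 and 33.8 in KO (45.4%, log2 difference -1.12). In none of the 3 did the groups overlap, and PDCD2 varied least within each group.

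RNASET2, which encodes a ribonuclease of lysosomes, was the exception among the 12, at 17.4 and 22.4 FPKM in WT and 19.2 and 18.2 in KO, with overlapping groups. The other genes of this role stood between 48.8% and 67.9% of WT. Among them were NUP43 of the nuclear pore (48.8%), SCAF8, which binds RNA polymerase II (49.1%), WTAP of the RNA methylation complex (50.2%), PPIL4 of the spliceosome (51.0%), the RNA-binding protein gene QKI (56.0%) and ADAT2, which encodes a subunit of a transfer RNA deaminase (59.8%). BCLAF1, a regulator of transcription and splicing, was at 65.5% of WT, but its WT libraries differed, at 24.6 and 14.0 FPKM against 11.8 and 13.4 in KO.

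Of the 10 genes of transcription and chromatin, 9 had both KO values below both WT values, and the 8 tested had a median log2 difference of -0.67. PHF10, a subunit of a chromatin remodelling complex, was at 27.0 and 27.5 FPKM in WT and at 14.0 and 14.8 in KO (52.7% of WT, log2 difference -0.88). TBP, the TATA-binding protein gene, was at 16.02 and 18.1 FPKM in WT and at 10.7 and 9.66 in KO (59.8%). FAM120B, a coactivator gene, was at 8.07 and 9.03 FPKM in WT and 5.87 and 5.01 in KO (63.6%). TBP, FAM120B and PDCD2 are the last 3 genes on the list, and in all 3 the KO libraries lay below the WT libraries.

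HIVEP2, a zinc finger gene, differed from the rest of this role, at 2.96 and 2.19 FPKM in WT and 2.78 and 2.51 in KO, with overlapping groups. TULP4 stood at 48.3% of WT, the chromatin remodelling gene ARID1B at 52.6%, GTF2H5 of the general factor TFIIH at 54.5% and the zinc finger gene ZBTB2 at 56.3%. SHPRH, a ubiquitin ligase gene of DNA repair, and MYB were too low to be tested.

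All 6 genes of mitochondria and peroxisomes had both KO values below both WT values, with a median log2 difference of -0.49. MTRF1L, a release factor of mitochondrial translation, was the lowest, at 15.3 and 13.8 FPKM in WT and 6.79 and 7.38 in KO (48.7% of WT). PEX7, the import receptor for one class of peroxisomal enzymes, had the smallest log2 difference (-0.32). It was at 3.41 and 4.28 FPKM in WT and 2.73 and 3.0 in KO (74.5%). PEX3, which brings membrane proteins to peroxisomes, stood at 49.1%, the ribosomal RNA methyltransferase gene TFB1M at 67.8% and RMND1, needed for mitochondrial translation, at 73.4%.

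**Figure D4:**
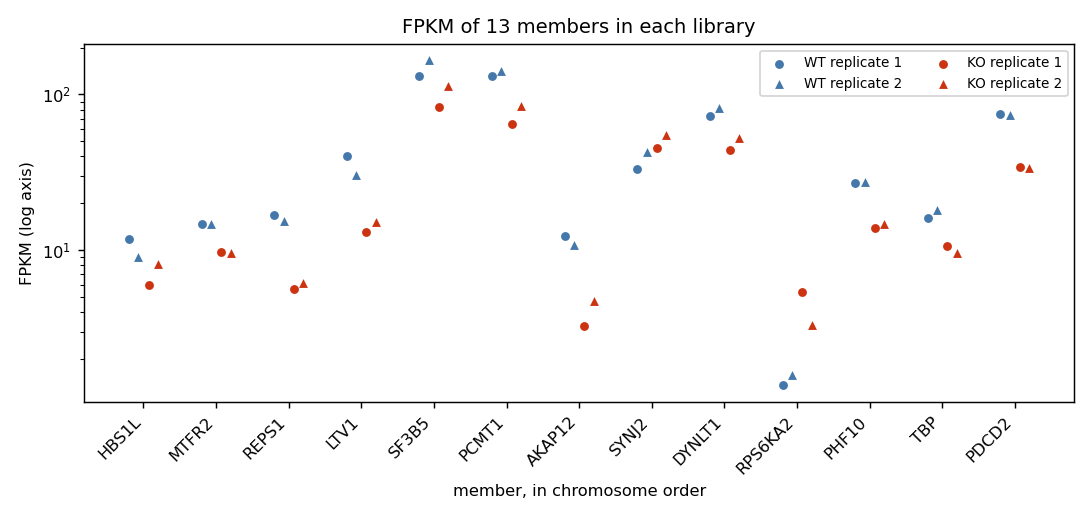
FPKM (log axis) of 13 members in each library, in chromosome order. Blue marks are WT and red marks KO, with circles for replicate 1 and triangles for replicate 2. PDCD2 lies at 74.1 to 75.3 in WT and 33.8 to 34.1 in KO, and SYNJ2 and RPS6KA2 are higher in both KO libraries.

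Of the 11 genes of the cytoskeleton, nuclear envelope and cilia, 7 had both KO values below both WT values, 1 had both above and 3 overlapped. DYNLT1, a light chain of dynein, was at 73.2 and 82.3 FPKM in WT and 44.2 and 52.8 in KO (62.4% of WT, log2 difference -0.67). It had the highest level of this role and, on the log2(FPKM + 1) scale, the lowest difference. That rank depends on the pseudocount, since the low gene NHSL1 followed at -0.66 while its ratio of means was 42.0%, and with a pseudocount of 0.1 the differences were -1.14 for NHSL1 and -0.68 for DYNLT1. ABRACL, linked to actin dynamics, stood at 64.7% and the microtubule severing gene KATNA1 at 62.0%. PHACTR2, an actin and phosphatase regulator, stood at 66.1%, and UTRN, the dystrophin relative, at 81.7% with overlapping groups. MAP7, PLEKHG1, SYNE1 and TIAM2 were too low to be tested. SYNE1, which encodes a long protein of the nuclear envelope, was at 0.49 and 0.47 FPKM in WT and 0.26 and 0.22 in KO. MAP7, a microtubule-binding protein gene, had both KO values above both WT values, but none of its values passed 0.15 FPKM.

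The 5 kinases and signalling scaffolds differed most among themselves. AKAP12, a scaffold for protein kinases A and C (chr6:151239967-151358559, plus strand), was the lowest of all 52 tested members, at 12.3 and 10.8 FPKM in WT and 3.28 and 4.72 in KO (34.6% of WT, log2 difference -1.34). MAP3K4, a stress-activated kinase gene, stood at 37.6% and the scaffold gene SASH1 at 64.4%. MAP3K5, another stress-activated kinase gene, was at 1.13 and 1.03 FPKM in WT and 1.57 and 1.13 in KO (125% of WT), with overlapping groups. RPS6KA2, which encodes the ribosomal S6 kinase RSK3 (gene identifier 6196, chr6:166409364-166862773, minus strand), was the highest of all 52, at 1.36 and 1.58 FPKM in WT and 5.38 and 3.34 in KO. Its KO mean was 297% of its WT mean (log2 difference 1.09), and the KO libraries differed from each other more than the WT libraries did.

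Membrane traffic genes split evenly. REPS1, an endocytosis protein gene (chr6:138903493-138988253, minus strand), was at 17.0 and 15.4 FPKM in WT and 5.67 and 6.20 in KO (36.7% of WT, log2 difference -1.31), and STXBP5, which restrains vesicle fusion, stood at 50.8%. SYNJ2, a phosphoinositide phosphatase gene (chr6:157981296-158099176, plus strand), was at 33.3 and 42.5 FPKM in WT and 45.5 and 54.8 in KO (132%). Its neighbour SNX9, a sorting nexin gene of endocytosis (chr6:157823246-157945077, plus strand), was at 11.9 and 12.0 FPKM in WT and 15.01 and 13.4 in KO (119%). For SYNJ2 the second WT and first KO library were closer to each other than the libraries within each group. Neither gene was called by limma.

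Of the 6 enzyme genes, 5 had both KO values below both WT values. PCMT1, which repairs aged aspartyl residues in proteins, was the lowest and the most abundant of the role, at 131 and 142 FPKM in WT and 64.9 and 83.7 in KO (54.4% of WT). AIG1, a lipid hydrolase gene, was at 10.2 and 11.8 FPKM in WT and 12.5 and 8.33 in KO, with the KO libraries on both sides of WT. The fucosidase gene FUCA2 stood at 62.3%, the heme-binding protein gene HEBP2 at 62.2% and the sulfotransferase gene UST at 74.5%. EPM2A, which encodes the glycogen phosphatase laforin, was at 84.9% and not tested.

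In the 5 remaining genes both KO values lay below both WT values. GINM1, a membrane glycoprotein gene, was at 20.9 and 20.8 FPKM in WT and 13.2 and 10.7 in KO (57.5% of WT, log2 difference -0.76). HECA, the human relative of the fly gene headcase, was at 3.21 and 3.0 FPKM in WT and 1.77 and 2.34 in KO (66.2%). FBXO30, a ubiquitin ligase component, stood at 51.8%, CCDC28A at 62.3% and LRP11 at 70.5%.

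The 3 tested members that were higher in both KO libraries lay in 2 neighbourhoods. SNX9 and SYNJ2 lie side by side, and the unlisted genes before them, TMEM242 (43.1% of WT) and ZDHHC14 (37.0%), and after them, SERAC1 (56.3%), then the members GTF2H5 and TULP4, all had lower KO values. Around RPS6KA2, PDE10A, a cyclic nucleotide phosphodiesterase gene, stood at 62.6% of WT. LINC00473, a long non-coding RNA gene, was at 0.65 and 0.64 FPKM in WT and 1.08 and 1.02 in KO. SFT2D1 stood at 78.4% and MPC1, a subunit of the mitochondrial pyruvate carrier, at 89.9%, the latter with overlapping groups. On the far side, RNASET2 overlapped, and FGFR1OP (59.97%) and AFDN (71.99%) were lower in KO. Apart from LINC00473, the unlisted genes of this paragraph were chosen after their values were seen. RPS6KA2 and RNASET2 both share exon sequence with an annotated read-through transcript, and no source used here says how reads were split between them.

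**Figure D5:**
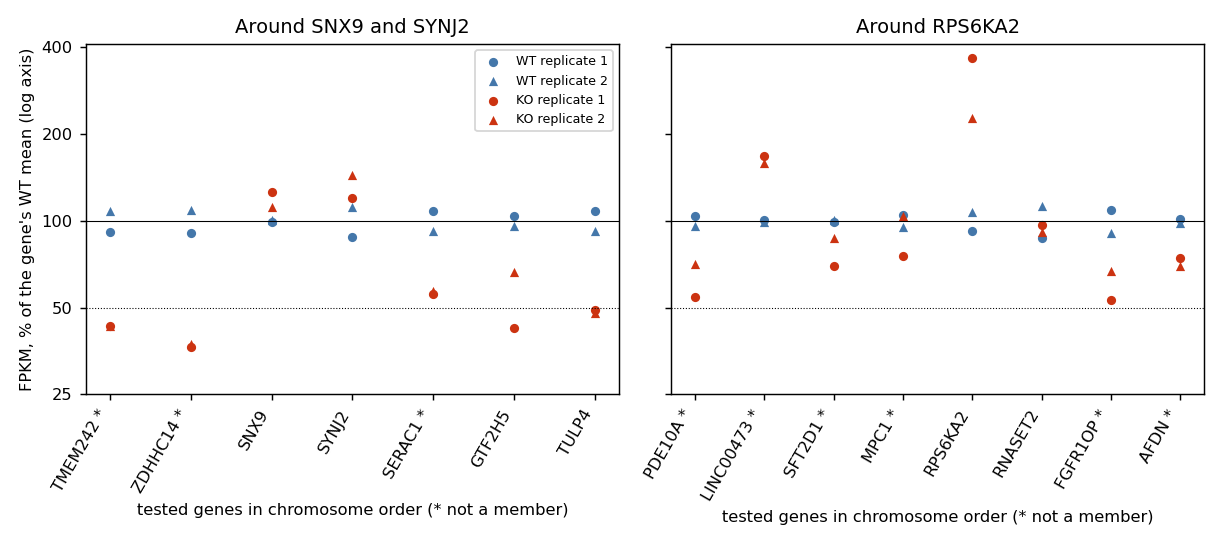
FPKM in each library as a percentage of the gene's WT mean (log axis) for tested genes in chromosome order around SNX9 and SYNJ2 (left) and around RPS6KA2 (right). Blue marks are WT and red marks KO, circles and triangles are replicates 1 and 2, an asterisk marks genes that are not members, and lines stand at 100% and 50%. On the left, 2 adjacent genes lie above 100% in KO between genes at 37.0% to 56.3%.

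The 45 tested unlisted genes of the stretch ranged from -1.60 to 0.32 on the log2(FPKM + 1) scale, and the members from -1.34 to 1.09. MTHFD1L, a mitochondrial enzyme of folate metabolism, was the lowest on this scale, at 52.4 and 56.4 FPKM in WT and 17.3 and 17.1 in KO (31.6% of WT, log2 difference -1.60). As a ratio of means, which weighs low genes more, 3 genes chosen after their values were seen stood lower: SYTL3 at 28.7% of WT, SLC22A3 at 15.3%, and PPP1R14C, which was at 1.36 and 1.2 FPKM in WT and is listed at 0 in both KO libraries. TCP1, a subunit of the cytosolic chaperonin, was at 249 and 225 FPKM in WT and 87.1 and 102 in KO (39.9%). ULBP3, a stress ligand for natural killer cells, was at 9.28 and 7.16 FPKM in WT and 2.64 and 2.88 in KO (33.6%). Its relative RAET1G was at 2.25 and 3.59 FPKM in WT and 4.41 and 3.18 in KO, with overlapping groups. ULBP3 and RAET1G belong to a family of close copies that can share reads, so their values are uncertain.

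Among the members, the log2 difference was also read by level, position and strand. The 8 tested genes with a WT mean under 3 FPKM had a median of -0.12, the 27 with 3 to 15 FPKM -0.59 and the 17 with 15 FPKM or more -0.69. The log2(FPKM + 1) scale understates differences of low genes, but as a ratio of means these medians were also ordered, at 88.6%, 62.3% and 59.8% of WT. Both measures contain the WT mean on which these groups were cut, so this order is no independent result. By distance, the 21 tested genes up to 10 Mb from MIR3662 had a median of -0.53, the 15 from 10 to 20 Mb -0.75, the 10 from 20 to 30 Mb -0.67 and the 6 beyond 30 Mb -0.63. The ranges between quartiles overlapped among these groups of distance. All 15 tested members from 10 to 20 Mb had both KO values below both WT values, against 28.7% of all tested genes. With unlisted genes included, 30 genes were tested there. In 27 of them both KO values lay below both WT values, and in 1 both lay above. By strand, the medians were -0.67 over 27 tested genes on the plus strand and -0.61 over 25 on the minus strand. No order among these groups was tested.

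Matches to the seed of miR-3662 were sought on the messenger RNA strand of the longest annotated 3′ untranslated region of each gene, as the 7 letters TCATTTT. Of the 59 members 25 held at least 1 match. Among the 52 tested members the share was 38.5% (20 genes), against 33.3% of 10562 other tested genes with such a region. The regions of tested members were longer, with a median of 2143.5 bases against 1353. The 20 tested members with a match had a median log2 difference of -0.47 and those without -0.67. Regions with a match were longer (3046 against 903 bases). Among the other tested genes the medians were 0.09 with a match and 0.06 without, with regions of 2762.5 and 877.5 bases. These differences were not tested. The 3 tested members that were higher in both KO libraries each held 1 match. Their regions were 2239 (SNX9), 2812 (SYNJ2) and 3398 (RPS6KA2) bases long. Of the other tested members with a positive log2 difference, AHI1 held 1 match, and MAP3K5 and HIVEP2 held none. The lines below show matches in capitals in HBS1L, the host gene, and in SNX9, SYNJ2 and RPS6KA2, with GRCh38 positions from GENCODE 29.
HBS1L, minus strand, chr6:134964457-134964481: tcatctcatTCATTTTtttaaccat
SNX9, plus strand, chr6:157944187-157944211: ccgctgcttTCATTTTtctgaccta
SYNJ2, plus strand, chr6:158098252-158098276: aaatagatcTCATTTTtaggttttc
RPS6KA2, minus strand, chr6:166409494-166409518: gtttacacaTCATTTTtatgttcct
HBS1L held 3 such matches in all, and the highest number was 5, in ADAT2. Members with lower KO values were found both with and without matches: FBXO30 (51.8% of WT) held 4 and PPIL4 (51.0%) and STXBP5 (50.8%) 2 each, while AKAP12, REPS1, LTV1 and PDCD2, at 34.6% to 45.4%, held none. These genes were chosen after their values were seen. Their regions ranged from 285 bases in LTV1 to 6604 in FBXO30. Whether matches bear on the levels of the members was not tested. A match is a run of letters and does not show that the microRNA binds there.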

How the data were processed

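The authors deposited 1 table of FPKM values, 1 per gene and library with 2 decimals, per the file headers. The submitters' processing notes name HISAT, StringTie, Cufflinks and GATK with the build hg38, without roles or versions, and no source used here describes filters. All FPKM columns matched 1 sample each. Identifiers were looked up in the RefSeq gene table (GRCh38.p14), which held 19694 of them, and positions and strands come from it and GENCODE 29. Low values were compared for steps of single reads, but the best ratio to the first WT library was matched within 3% by only 13 of 124, 17 of 91 and 11 of 99 genes, so no depth is given.

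A minimum of 1 FPKM, reached in 2 libraries or more, decided which genes were tested. Their log2(FPKM + 1) values were fitted in limma 3.58.1 (R 4.3.3) with trend, p-values were adjusted by Benjamini-Hochberg, and the script was tested on simulated data. Tables were made in Python 3.11.15 with pandas 2.3.3. The members, role groups and gene lists were chosen with earlier results of these data known. Values in every library were given for HBS1L, MYB, AHI1, the last 3 members, and in each of 8 role groups the lowest, the highest and the most abundant member. The same was done for the 3 tested genes before HBS1L and the 3 lowest and 3 highest unlisted genes. Exons of 35 members overlap those of another GENCODE gene, in 16 those of a protein-coding gene. Members with lower KO values are among the 16, such as LTV1, PHACTR2 and SCAF8, which overlap a coding gene on the same strand. In 29 of the 35 an overlap is on the opposite strand, as for NUP43 with PCMT1 and WTAP with SOD2. No source used here says whether counting used strand, so reads of such pairs cannot be told apart. Other pseudocounts, filters, scaling, left-out libraries and a replicate block were tried.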

Additional observations from a re-analysis of the deposited data

How the results depend on the processing

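The median log2 difference of the members, -0.61, was -0.69 with a pseudocount of 0.1, -0.66 with 0.5, -0.57 with no filter, -0.68 with a minimum of 5 FPKM and -0.71 after scaling by the median of ratios, and from -0.66 to -0.57 when each library was left out. That of the unlisted genes from HBS1L on, -0.60, was -0.73 with a pseudocount of 0.1 and -0.048 with no filter, which adds low genes, and from -0.72 to -0.49 when each library was left out. That of chromosome 6 before HBS1L was -0.085 after scaling and from -0.045 to 0.056 when each library was left out. With a minimum of 5 FPKM, 34 members were tested and 30 had both KO values below both WT values, against 32.5% of the 8457 genes with that minimum.

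Over all genes, limma called 3184, of which 1278 were lower and 1906 higher. With no filter it called 525, after scaling 3241 (1828 lower and 1413 higher), and from 1402 (without the first WT library) to 1902 (without the first KO library) when each library was left out, where the lone library of a group is taken to vary like the other group. The cause was not tested. With the replicate number as a block it called 2864, and 31 members lower. The numbers did not pair the libraries (correlation of deviations -0.18), and crossing them, an alternative chosen after seeing the data, gave 4170 calls. Of the 52 tested members, 5, all with overlapping groups, changed sign under some setting: AHI1 (-0.17), HIVEP2 (-0.12), RNASET2 (0.10) and AIG1 (0.0058) without the second WT library, UTRN (0.06) without the first, AIG1 without the second KO library (0.18), HIVEP2 without the first (-0.02), and AHI1 (-0.01) and HIVEP2 (-0.04) after scaling. The other 47 kept their sign under every setting that tested them.

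Read depth is unknown, and 2 libraries a group limit the precision of every value.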
